A study of Mus musculus with 6 samples.

Results

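Cardiac actin and a group of stretch and Z-disc genes were examined in the tibialis anterior, namely Actc1, Csrp3, Ankrd2, Mybph and Myoz2. They were taken by gene symbol, 5 of the 11239 genes in the expression tables, and were selected on the same FPKM values, by their lower level in aged than in young muscle. Their difference with age is therefore described with no test. The samples were 3 of TA muscle from aged C57BL/6 mice, 18 months old, and 3 from young C57BL/6 mice, 3 months old, with no transgene or treatment named in the labels for either group. Libraries were made from total RNA, the values are FPKM (fragments scaled to transcript length and to the library's total), and nothing states that each sample came from its own animal, so p-values measure the spread between these samples, which may be technical. For sex and library strandedness, no value was given in the sources used here.

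Striated muscle is built from sarcomeres, in which actin thin filaments are anchored at the Z-disc and slide along myosin thick filaments. The Z-disc also holds LIM-domain, ankyrin-repeat and calcineurin-binding proteins that sense strain and can signal to the nucleus. Several of these genes are known for high expression in heart and slow fibres, for expression in developing or regenerating skeletal muscle, and for a rise when muscle is stretched. The tibialis anterior of the mouse is a shin muscle made almost wholly of fast fibres.

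Actc1 encodes cardiac alpha-actin, the main sarcomeric actin of the adult heart and an actin of embryonic skeletal muscle. It lies on chr2:114047282-114053548 (GRCm38, minus strand, ENSMUSG00000068614, 2 annotated transcripts). Its level was 21.6, 28.9 and 25.1 FPKM in aged replicates 1 to 3, against 388, 667 and 827 FPKM in young replicates 1 to 3. Every aged library lay below every young one, and the lowest young value was 13.4 times the highest aged value. The young libraries were spread more widely than the aged ones, with replicate 3 highest and replicate 1 lowest. The means were 25.2 ± 3.69 FPKM in aged muscle and 628 ± 222 FPKM in young muscle (SD, n = 3 each), 24.9-fold lower in aged muscle, a difference of −4.53 in log2(FPKM + 1). In bulk tissue fewer cells of a type and less RNA per cell cannot be told apart. All 5 genes had every aged library below every young one, a pattern found in 29.0% of the 7690 genes whose mean reached 1 FPKM. That count follows from how the genes were chosen.

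Actc1 and its skeletal counterpart Acta1, the alpha-actin of adult skeletal muscle, are close relatives in sequence. Across the 1131 coding bases the genes were 86.3% identical. None of the 1424 windows of 50 bases in the Actc1 transcript (0) was found unchanged in a transcript of another gene, nor was any such window of the other 4 genes. Transcripts were searched in their own direction only, so genes on the opposite strand of the same locus were not covered. Allowing 2 mismatches, 44 of 1082 coding windows of 50 bases in Actc1 matched Acta1 at the same position, and 0 of 1032 windows of 100 bases did. The sources used here give neither read length nor the mismatches allowed in alignment, and whether Actc1 values hold reads of Acta1 was not tested. The Actc1 locus also overlaps the gene A530058N18Rik on the opposite strand, which was not analysed here, and without strand information their reads cannot be told apart. Acta1, at 22781 ± 2359 FPKM in aged muscle and 30067 ± 1551 FPKM in young muscle (SD, n = 3 each), was far above Actc1 in both. The share of Actc1 in the sum of the pair was 0.0938%, 0.115% and 0.123% in aged libraries, against 1.35%, 2.10% and 2.61% in young libraries. The difference in this share follows from the Actc1 values by which the gene was chosen, and Acta1 differed by −0.40 ± 0.09 on the log2 scale (SE, adjusted p = 0.00794, limma).

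Csrp3 encodes the muscle LIM protein, which binds alpha-actinin and telethonin at the Z-disc and can enter the nucleus, and whose mutation causes cardiomyopathy in humans. It lies on chr7:48830398-48848033 (GRCm38, minus strand, ENSMUSG00000030470, 4 annotated transcripts). Csrp3 stood at 24.6, 12.6 and 13.4 FPKM in aged replicates 1 to 3, against 111, 119.7 and 149 FPKM in young replicates 1 to 3. The groups did not overlap, aged replicate 1 was the highest of its group and young replicate 3 the highest of the other. Mean levels were 16.9 ± 6.74 FPKM in aged muscle and 127 ± 19.9 FPKM in young muscle (SD, n = 3 each), 7.50-fold lower in aged muscle, a log2 difference of −2.89.

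Ankrd2 encodes an ankyrin-repeat protein that binds titin at the I-band and is induced by stretch in mouse muscle. It lies on chr19:42036038-42045110 (GRCm38, plus strand, ENSMUSG00000025172, 2 annotated transcripts). Ankrd2 reached 85.2, 68.6 and 42.1 FPKM in aged replicates 1 to 3, against 292, 315 and 374 FPKM in young replicates 1 to 3. All aged values were below all young values. Aged replicate 3 was the lowest library and young replicate 3 the highest. The means of 65.3 ± 21.7 FPKM in aged muscle and 327 ± 42.7 FPKM in young muscle (SD, n = 3 each) differed 5.01-fold, or by −2.36 on the log2 scale.

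Myoz2 encodes myozenin 2, also called calsarcin-1, which ties calcineurin to alpha-actinin at the Z-disc and is typical of slow fibres and heart in the mouse. It lies on chr3:123006206-123035015 (GRCm38, minus strand, ENSMUSG00000028116, 5 annotated transcripts), with the small gene Gm22066 inside its span. Its level was 20.9, 19.7 and 19.0 FPKM in aged replicates 1 to 3, against 94.4, 72.1 and 80.5 FPKM in young replicates 1 to 3. Myoz2 had the tightest aged values of the 5 genes and no overlap between ages. Unlike Actc1, Csrp3 and Ankrd2, it was highest in young replicate 1. Its means of 19.9 ± 0.970 FPKM in aged muscle and 82.3 ± 11.3 FPKM in young muscle (SD, n = 3 each) gave a 4.15-fold lower level in aged muscle, a log2 difference of −1.99.

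Mybph encodes myosin-binding protein H, a thick-filament protein related to the myosin-binding proteins C. It lies on chr1:134193448-134201232 (GRCm38, plus strand, ENSMUSG00000042451, 2 annotated transcripts), and its 3′ end overlaps Adora1 on the opposite strand, which was not analysed here. Mybph was the lowest of the 5 genes, with 2.03, 1.42 and 5.60 FPKM in aged replicates 1 to 3, against 18.2, 23.1 and 21.4 FPKM in young replicates 1 to 3. Aged replicate 3 was 3.95 times aged replicate 2, yet still below every young library. The means were 3.02 ± 2.26 FPKM in aged muscle and 20.9 ± 2.51 FPKM in young muscle (SD, n = 3 each), 6.93-fold lower in aged muscle and −2.58 on the log2 scale. Without aged replicate 3 the Mybph level was 12.1-fold lower in aged muscle. For the other 4 genes, leaving out any single library kept the fold within 1.5 times its value.

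**Figure D1:**
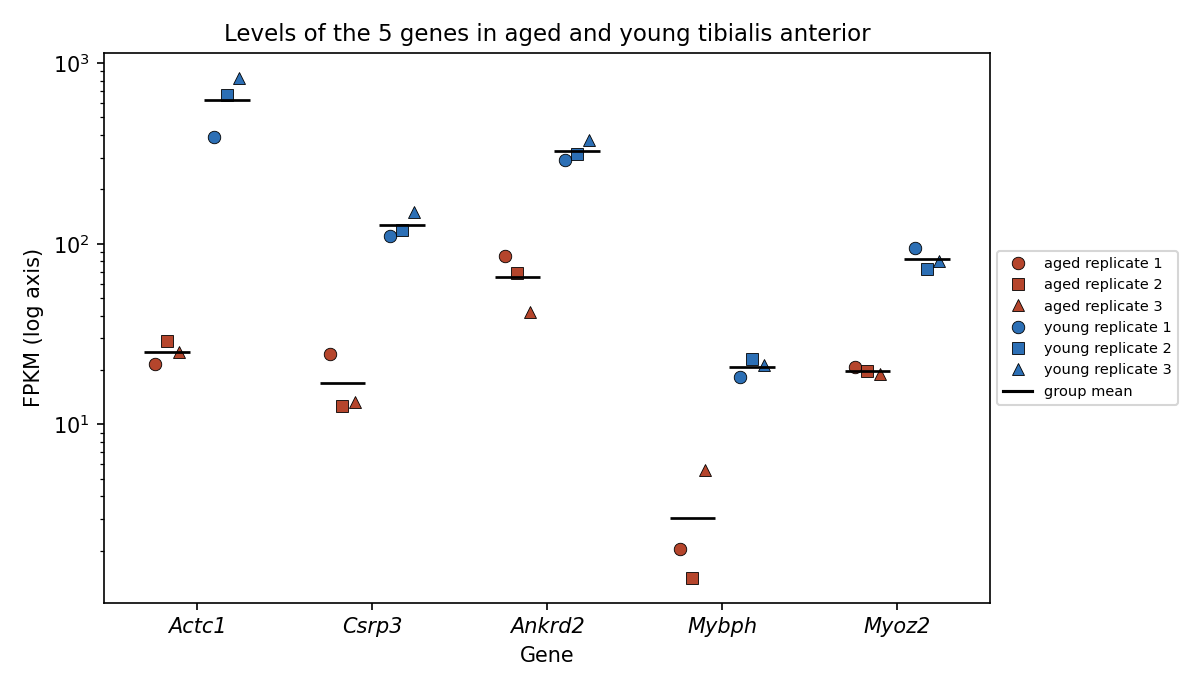
FPKM of each gene in every library on a log axis, aged libraries left and young libraries right within each gene, with a point per library and a line at each group mean. For all 5 genes the 3 aged libraries sit below the 3 young ones, with the widest gap in Actc1.

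These differences rest on many fragments. The whole fragment counts that the FPKM values returned were 1935 to 2332 for Actc1 in aged libraries, against 34179 to 75023 in young libraries. The lowest count of any of the 5 genes was 267 fragments, for Mybph in aged replicate 2, with an exact 95% Poisson interval of 236 to 301. Such intervals cover counting error only. Ranked by FPKM among the 11239 genes, Actc1 held places 2402, 1858 and 2140 in aged libraries, against 157, 81 and 69 in young libraries. Ankrd2 held places 696, 842 and 1362 in aged libraries, against 210, 185 and 160 in young libraries.

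The order of the 5 levels differed with age. In aged muscle Ankrd2 was highest, then Actc1, then Myoz2 and Csrp3, whose ranges overlapped, and Mybph was lowest. The range of Csrp3 in aged muscle also reached into that of Actc1. In young muscle the order was Actc1, Ankrd2, Csrp3, Myoz2 and Mybph, and no neighbours overlapped. FPKM depends on the length used, and the lengths behind the deposited values match the mean over a gene's annotated transcripts for most genes. For Actc1 that length was 888 bases, against 1473 bases in its coding transcript. Recomputed per coding transcript, the aged means were 63.1 FPKM for Ankrd2, 21.5 for Csrp3, 19.2 for Myoz2, 15.2 for Actc1 and 2.70 for Mybph. The young means on this scale were 378 FPKM for Actc1, 316 for Ankrd2, 161 for Csrp3, 79.8 for Myoz2 and 18.7 for Mybph. On this scale the aged mean of Actc1 lay below those of Csrp3 and Myoz2. Its aged range of 13.0 to 17.4 overlapped that of Csrp3, 16.0 to 31.3. The young means kept their order, but the young ranges of Actc1 and Ankrd2 overlapped, since young replicate 1 had 234 for Actc1 and 282 for Ankrd2.

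Windows of 300 bases around the annotated start sites, 250 before and 50 after, were read from the RefSeq promoter table (GRCm38.p6) for all 5 genes and searched on both strands. The motifs were the CArG box, bound by serum response factor, the MEF2 box, the E-box CANNTG, bound by myogenic bHLH factors, and MCAT, CATTCC, bound by TEAD factors. The 3 windows printed are those with a motif other than the E-box, in capitals together with each E-box, 5′ to 3′ on the strand of the gene. They are chr2:114052826-114053125 (minus strand) for Actc1, chr1:134193198-134193497 (plus strand) for Mybph and chr3:123034938-123035237 (minus strand) for Myoz2.

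Actc1: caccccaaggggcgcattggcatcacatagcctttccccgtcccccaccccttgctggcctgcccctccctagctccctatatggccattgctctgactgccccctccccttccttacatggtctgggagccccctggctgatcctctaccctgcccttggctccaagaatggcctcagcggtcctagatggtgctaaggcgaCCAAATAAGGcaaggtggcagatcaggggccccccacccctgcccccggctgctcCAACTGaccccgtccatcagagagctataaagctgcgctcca
Mybph: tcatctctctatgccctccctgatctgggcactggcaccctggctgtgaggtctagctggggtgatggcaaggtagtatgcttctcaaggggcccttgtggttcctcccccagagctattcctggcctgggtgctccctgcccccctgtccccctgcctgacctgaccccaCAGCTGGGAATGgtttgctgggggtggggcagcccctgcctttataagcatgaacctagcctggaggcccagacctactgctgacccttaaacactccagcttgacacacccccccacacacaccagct
Myoz2: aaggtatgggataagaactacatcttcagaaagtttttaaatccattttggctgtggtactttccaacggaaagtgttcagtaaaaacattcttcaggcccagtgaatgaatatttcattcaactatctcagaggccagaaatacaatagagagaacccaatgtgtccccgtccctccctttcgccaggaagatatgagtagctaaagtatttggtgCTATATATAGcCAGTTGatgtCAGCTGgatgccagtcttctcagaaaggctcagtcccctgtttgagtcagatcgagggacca

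Actc1 had a CArG box, CCAAATAAGG, at −47 to −38 from the start site and an E-box at 9 to 14. These positions count from the start site of the promoter annotation. The whole Actc1 window lies inside the gene span given above, which begins upstream of it. Its distances therefore hold for that annotated start only. Myoz2 had a MEF2 box, CTATATATAG, at −33 to −24 and a pair of E-boxes downstream of it. Mybph had an MCAT match at −73 to −68, on the strand opposite the gene, directly after an E-box at −79 to −74. Ankrd2 held 3 E-boxes, and the windows of Csrp3 held 5 and 4, with no other match in these windows. None of the matches overlapped another. Over all 32851 windows of the table, 1.63% held a CArG box, 3.19% a MEF2 box, 14.7% MCAT and 72.3% an E-box. These matches describe letters only, and no binding was measured.

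Within each age the 5 genes did not vary in the same way. Relative to its mean in young libraries, Actc1 was −0.62, 0.16 and 0.47 on the log2 scale in young replicates 1 to 3. Csrp3 and Ankrd2 had the same order, with 0.24 and 0.20 in young replicate 3. Myoz2 had another order, with 0.20 in young replicate 1 and −0.18 in young replicate 2. In aged libraries, Ankrd2 was at −1.92, −2.23 and −2.92 and Mybph at −2.85, −3.17 and −1.72, so that aged replicate 3 was the lowest for Ankrd2 and the highest for Mybph. Averaged over the 5 genes, the aged libraries lay at −2.74, −2.99 and −2.87 and the young ones at −0.19, 0.00 and 0.19. By Euclidean distance between these profiles over the 6 libraries, the closest pairs were Ankrd2 with Myoz2 (1.00) and Csrp3 with Ankrd2 (1.08). The most distant pair was Actc1 with Myoz2 (4.52). This distance includes each gene's difference with age, by which the 5 genes were chosen. It is therefore not a measure of likeness within an age.

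Genes elsewhere in the tables came close to these profiles, by the same distance. Nearest to Myoz2 were Tfrc, the transferrin receptor (0.174), Adamts8, a secreted metalloprotease (0.265), and Myh2, the type 2A myosin heavy chain (0.280). Myh2 stood at 207, 224 and 186 FPKM in aged libraries, against 1042, 803 and 853 FPKM in young libraries, with the highest young value in replicate 1, as for Myoz2. Nearest to Ankrd2 were the imprinted noncoding RNA Meg3 (0.580), the type III collagen gene Col3a1 (0.772) and the matrix gene Postn (0.781). Nearest to Csrp3 were Col3a1 (0.837), the mTORC1 inhibitor gene Ddit4 (0.976) and the matrix gene Sparc (1.03). Mybph had the alpha-arrestin gene Arrdc3 (1.06), the imprinted noncoding RNA Rian (1.34) and Postn (1.34) as its nearest. The nearest to Actc1 were farther off, namely the type I collagen chains Col1a1 (1.49) and Col1a2 (2.14) and then Ddit4 (2.48). Col1a1 ran 36.6, 32.8 and 28.5 FPKM in aged libraries, against 737, 717 and 440 FPKM in young libraries, and within the young group its order was the reverse of that of Actc1. The 5 genes nearest to the mean profile were Col3a1 (0.524), the imprinted noncoding RNA H19 (0.782), Ddit4 (0.825), Sparc (0.914) and Postn (1.06). Each of these genes was lower in aged muscle, the difference by which the 5 genes had been chosen and which enters the distance.

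The closest relatives of these genes differed less between ages than the 5 genes did, which follows from the choice of the 5 genes by this difference. Among the relatives tested, 6 did not pass. Of 15 such genes 12 were in the tables and 11 reached the minimum of 1 FPKM. In the fit over all 7690 genes, where 51.8% were called at an adjusted p under 0.05 (limma, Benjamini-Hochberg), 27.3% higher and 24.5% lower in aged muscle, 3 of these 11 rose and 2 fell. Their median log2 change was 0.10, against 0.02 over all genes tested. Without aged replicate 1, 5 of them rose, Actg1 and Ankrd23 being added. The relatives had been listed with earlier results known, and Csrp1, Mybpc3 and Mybphl were not analysed here.

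Among the actins, Acta1, the adult skeletal alpha-actin, fell to 22969, 25040 and 20334 FPKM in aged libraries, against 28284, 31097 and 30820 FPKM in young libraries. These groups did not overlap, and the call was lost with no minimum level (adjusted p = 0.0726, limma). The cytoplasmic actin gene Actb rose by 0.27 on the log2 scale (adjusted p = 0.0442, limma), with 167 ± 12.5 FPKM in aged muscle and 139 ± 16.7 FPKM in young muscle (SD, n = 3 each), and the groups overlapped. Actb lost its call with the replicate number as a block (adjusted p = 0.0622) and without aged replicate 2 (0.0915), aged replicate 3 (0.122), young replicate 2 (0.144) or young replicate 3 (0.126). With no minimum level the Actb call was lost too (adjusted p = 0.0657, limma). Actg1, the other cytoplasmic actin, had 72.7 ± 12.7 FPKM in aged muscle and 60.6 ± 6.49 FPKM in young muscle (adjusted p = 0.152, limma). Smooth muscle actin Acta2 stood at 27.5 ± 3.05 FPKM in aged muscle and 27.0 ± 1.59 FPKM in young muscle (adjusted p = 0.852, limma). Actg2, the enteric smooth muscle actin, lay under the minimum, at 0.714 FPKM in aged muscle and 0.732 FPKM in young muscle.

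Csrp2, the LIM-protein relative of Csrp3 known from smooth muscle and fibroblasts, fell to 2.27, 1.45 and 1.86 FPKM in aged libraries, against 4.13, 3.36 and 3.42 FPKM in young libraries. The groups did not overlap, and the log2 change was −0.70 ± 0.12 (SE, adjusted p = 0.00281, limma). Csrp3 made up 91.6%, 89.7% and 87.8% of the summed Csrp2 and Csrp3 FPKM in aged libraries, against 96.4%, 97.3% and 97.8% in young libraries. The titin-binding relatives of Ankrd2 did not pass the test. Ankrd1, best known from heart, had 10.8, 5.72 and 10.8 FPKM in aged libraries, against 5.49, 5.41 and 13.0 FPKM in young libraries, with overlapping groups (adjusted p = 0.580, limma). Ankrd23 had 36.9 ± 8.79 FPKM in aged muscle and 33.7 ± 1.27 FPKM in young muscle (adjusted p = 0.623, limma). Without aged replicate 1, its lowest library at 26.8 FPKM, Ankrd23 was called higher in aged muscle (log2 change 0.31, adjusted p = 0.00990, limma). Ankrd2 was 69.4%, 58.6% and 44.8% of the summed FPKM of these 3 genes in aged libraries, against 88.4%, 89.1% and 88.6% in young libraries. The aged shares were spread more widely, although a share near its upper limit can vary little. The differences with age in the Csrp3 and Ankrd2 shares follow from the values by which these genes were chosen.

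The tested relatives of Myoz2 and Mybph either rose or did not pass the test. Myoz3, another calcineurin-binding calsarcin, rose to 108, 109 and 126 FPKM in aged libraries, against 78.2, 86.2 and 86.6 FPKM in young libraries (log2 change 0.44 ± 0.08, SE, adjusted p = 0.00299, limma), with no overlap. Myoz1, the main fast-fibre calsarcin, had 1399 ± 95.3 FPKM in aged muscle and 1375 ± 17.5 FPKM in young muscle (adjusted p = 0.777, limma). Myoz2 was 1.46%, 1.29% and 1.16% of the summed FPKM of the calsarcins in aged libraries, against 6.11%, 4.75% and 5.16% in young libraries. Mybpc2, the fast myosin-binding protein C, rose to 3008, 3014 and 2746 FPKM in aged libraries, against 2212, 2523 and 2385 FPKM in young libraries (log2 change 0.30 ± 0.07, SE, adjusted p = 0.00996, limma). Its slow-type relative Mybpc1 had 1415 ± 68.4 FPKM in aged muscle and 1582 ± 109 FPKM in young muscle (adjusted p = 0.0879, limma). The share of Mybph in the 3 summed was at most 0.133% in aged libraries and at least 0.463% in young libraries. The differences with age in the Myoz2 and Mybph shares also follow from the values by which these genes were chosen.

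The coding sequences of these families are less alike than those of the actins. Csrp3 was 67.2% identical to Csrp2, Ankrd2 was 63.5% identical to Ankrd1 and 61.2% to Ankrd23, and Myoz2 was 59.0% identical to Myoz1 and 59.8% to Myoz3, over aligned coding bases. The longest identical run in these pairs was 26 bases, between Ankrd2 and Ankrd23.

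**Figure D2:**
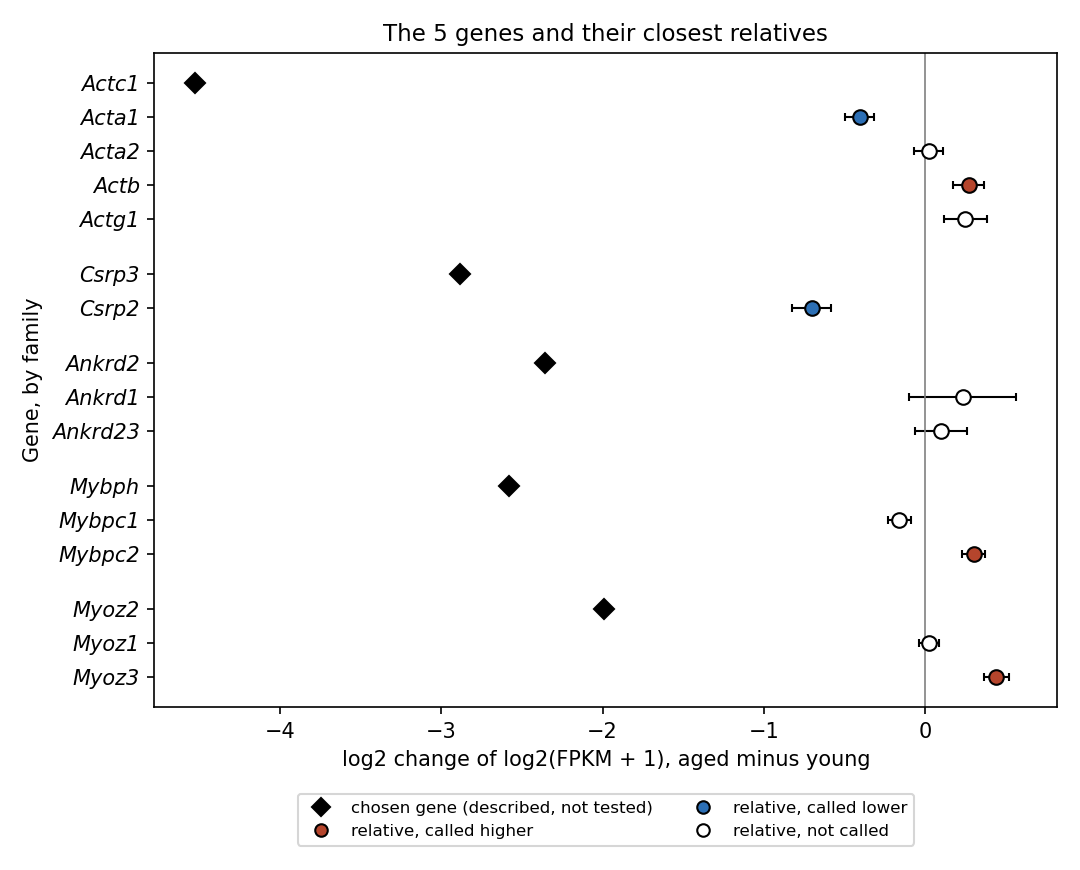
Log2 change of log2(FPKM + 1), aged minus young, for the 5 genes (black diamonds, not tested) and their relatives above the minimum (circles, with bars for the SE from limma). Circles are red where called higher, blue where called lower and open where not called. The lowest relative, Csrp2, is at −0.70 while the highest of the 5 genes, Myoz2, is at −1.99, a gap that follows from how the 5 genes were chosen.

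Other structural genes of the Z-disc fell more often than they rose. All 28 listed genes were in the tables and 27 reached the minimum (Nebl did not), of which 11 fell, 6 rose and 10 did not pass, 63.0% called against 51.8% of all genes, with a median log2 change of −0.13. Actn2, the alpha-actinin that Csrp3 and Myoz2 proteins bind, fell to 325, 342 and 268 FPKM in aged libraries, against 815, 813 and 807 FPKM in young libraries. That is a log2 change of −1.39 ± 0.09 (SE, adjusted p = 5.24e-05, limma), with a wide gap between the groups. Tcap, the gene of the titin cap protein telethonin, fell to 2289 ± 287 FPKM in aged muscle, against 4642 ± 178 FPKM in young muscle (−1.03, adjusted p = 0.000229, limma). The LIM-domain gene Pdlim1 fell by 0.88 on the log2 scale, to 8.83 ± 0.528 FPKM in aged muscle against 17.1 ± 0.687 FPKM in young muscle (adjusted p = 0.000116, limma). In the other direction Sorbs2, an adaptor of the Z-disc, rose to 50.5 ± 6.25 FPKM in aged muscle, against 26.7 ± 2.50 FPKM in young muscle (0.89, adjusted p = 0.000565, limma). Synm, an intermediate filament gene, rose by 0.51 and the formin gene Fhod3 by 0.32 (adjusted p = 0.00283 and 0.0135, limma). When young replicate 1 was left out, Fhod3 lost its call (adjusted p = 0.0509) and 3 genes of the list rose.

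Thick-filament and M-band genes, the surroundings of the protein of Mybph, fell in 6 cases and rose in 2 of 17 tested, while 9 did not pass. Their median log2 change was −0.17. The 47.1% called is near the 51.8% of all genes. With the replicate number as a block 7 fell, the ubiquitin ligase gene Trim63 being added (adjusted p = 0.0204, against 0.108 without the block, limma). Fhl1, a LIM-domain gene of skeletal muscle, fell to 475, 431 and 407 FPKM in aged libraries, against 1376, 1281 and 1251 FPKM in young libraries. Its log2 change of −1.57 ± 0.07 (SE, adjusted p = 1.75e-05, limma) came with no overlap. The sarcomeric genes Igfn1 and Myom3 fell by 0.78 and 0.65 on the log2 scale (adjusted p = 0.00736 and 0.00206, limma). The chaperone genes Hsp90aa1 and Unc45b, which act in myosin folding, rose by 0.59 and 0.37 (adjusted p = 0.000983 and 0.00265, limma). Ttn was not analysed here.

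Genes that respond to load and stretch moved in both directions. Of 23 listed, 20 were in the tables and 19 were tested (Fhl2 lay under the minimum), of which 8 fell, 5 rose and 6 did not pass, 68.4% called against 51.8% of all genes, with a median log2 change of −0.07. Ctgf, a secreted matrix protein and a target of YAP and TEAD, fell to 3.71, 3.92 and 3.32 FPKM in aged libraries, against 14.2, 12.7 and 10.8 FPKM in young libraries (log2 change −1.54 ± 0.10, SE, adjusted p = 5.73e-05, limma). The groups did not overlap. Mstn, the growth inhibitor myostatin, fell by 0.72 on the log2 scale and the growth factor gene Igf1 by 0.64 (adjusted p = 0.0128 and 0.0125, limma). Tead4, a transcription factor that binds MCAT sites, rose to 6.95, 9.16 and 9.88 FPKM in aged libraries, against 3.26, 3.72 and 3.60 FPKM in young libraries (1.08 ± 0.12, SE, adjusted p = 0.000439, limma). Tead1 of the same family rose by 0.59, and the caveolar gene Murc by 0.67 (adjusted p = 0.000483 and 0.00297, limma). Srf, Wwtr1 and Piezo1 were not analysed here. Without young replicate 1, or without young replicate 2, 3 genes of the list rose.

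Calcineurin and NFAT genes, the pathway that myozenin 2 binds, rose in 5 cases and fell in 2 of 13 tested, while 6 did not pass. The 53.8% called is near the 51.8% of all genes. Their median log2 change was 0.00. The transcription factor genes Mef2a and Mef2c rose by 0.62 and 0.48 on the log2 scale (adjusted p = 0.000628 and 0.00430, limma). Ppp3cb, a catalytic subunit of calcineurin, rose to 182 ± 12.4 FPKM in aged muscle, against 131 ± 3.66 FPKM in young muscle (0.47, adjusted p = 0.00108, limma). Nfatc4 fell by 0.55 and Cabin1, a calcineurin inhibitor gene, by 0.24 (adjusted p = 0.00525 and 0.0272, limma). Cabin1 lost its call without aged replicate 2 (adjusted p = 0.0648), aged replicate 3 (0.0586), young replicate 1 (0.0685), young replicate 2 (0.0775) or young replicate 3 (0.0732), each leaving 1 gene that fell. Rcan1, a known transcriptional target of calcineurin signalling, had 26.3, 27.2 and 26.6 FPKM in aged libraries, against 22.6, 23.1 and 36.3 FPKM in young libraries, with young replicate 3 highest (adjusted p = 0.995, limma). Without young replicate 3 Rcan1 passed the test, with all aged values above the remaining young ones.

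Slow-fibre genes moved in both directions. All 13 were tested, 6 rose, 2 fell and 5 did not pass, 61.5% called against 51.8% of all genes. Their median log2 change was 0.17. Myh7, the slow myosin heavy chain, rose by 1.64 ± 0.48 on the log2 scale (SE, adjusted p = 0.0235, limma), with 7.83, 6.67 and 1.07 FPKM in aged libraries, against 0.802, 0.740 and 0.486 FPKM in young libraries. Aged replicate 3 lay near the young libraries. The slow light chain gene Myl2 rose to 24.3, 18.1 and 10.0 FPKM in aged libraries, against 6.61, 5.37 and 8.83 FPKM in young libraries, and slow troponin C, Tnnc1, rose by 1.13 (adjusted p = 0.0122 and 0.0206, limma). Myl3, another slow light chain, fell by 0.58 and Casq2, a calcium store protein of heart and slow fibres, by 0.38 (adjusted p = 0.0229 and 0.0165, limma). Without young replicate 1 both lost their calls (adjusted p = 0.0715 and 0.0564), so that none of the list fell. Myh7 lost its call without aged replicate 1 (adjusted p = 0.0619), aged replicate 2 (0.0749), young replicate 2 (0.0601) or young replicate 3 (0.0624), and by voom on fragment counts (0.0533). Tnnc1 lost its call without aged replicate 2 (0.0649), young replicate 2 (0.0582) or young replicate 3 (0.0592). Aged replicate 1, the highest aged library for Csrp3, Ankrd2 and Myoz2, was also the highest for Myh7, Myl2 and Tnnc1. It was the lowest for Actc1, and Mybph was highest in aged replicate 3. Of the slow list, Myl3 and Myl6b were highest in aged replicate 2, and Myh7b, Casq2 and Sln in aged replicate 3. The part of slow fibres in the levels of the 5 genes was not tested. The summed FPKM of the slow list was 191 to 268 in aged libraries, against 236 to 282 in young libraries. Myl3, which fell, was the largest part of this sum, at 93.9 ± 20.9 FPKM in aged muscle and 139 ± 21.2 FPKM in young muscle. The 6 genes that rose were each at lower levels than Myl3, so the sum does not stand for them.

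Other genes of heart and developing muscle, in which Actc1 is also expressed, were mostly not analysed here or not called. Of 16, 10 were in the tables and 7 were tested, of which 1 rose, 2 fell and 4 did not pass, 42.9% called against 51.8% of all genes. Chrng, Myh3 and Ryr2 lay under the minimum. Chrng had 0.305 FPKM in aged muscle and 0.101 FPKM in young muscle, and was called higher when no minimum was set (adjusted p = 0.00514, limma). Their median log2 change was −0.14. Myl4, an embryonic and atrial myosin light chain, rose to 9.95, 6.79 and 10.2 FPKM in aged libraries, against 4.05, 3.79 and 4.75 FPKM in young libraries (0.93, adjusted p = 0.00194, limma). The differentiation factor gene Myog fell to 1.83 ± 0.289 FPKM in aged muscle, against 3.40 ± 0.192 FPKM in young muscle, and the adhesion gene Ncam1 fell to 1.24 ± 0.209 FPKM in aged muscle, against 1.92 ± 0.199 FPKM in young muscle (adjusted p = 0.00145 and 0.0136, limma). Myh6, the atrial myosin heavy chain, had 3.95 ± 0.617 FPKM in aged muscle and 4.47 ± 0.882 FPKM in young muscle (adjusted p = 0.428, limma). With the replicate number as a block 2 genes rose, Tnnt2, cardiac troponin T, being added (adjusted p = 0.0408), as were 2 without aged replicate 1. Nppa, Nppb, Tnni3, Myl7, Nkx2-5 and Gata4 were not analysed here, so the heart markers rest on 3 of 9 genes, Myh6, Myl4 and Ryr2. None was at 0 in a library, but Ryr2 was at only 0.0270 FPKM in aged muscle and 0.0233 FPKM in young muscle. The summed level of the 3 was 10.1 to 14.5 FPKM in aged libraries, against 7.53 to 9.62 FPKM in young libraries. The higher sum in aged muscle rests on Myl4, at 8.98 FPKM in aged muscle and 4.20 FPKM in young muscle.

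**Figure D3:**
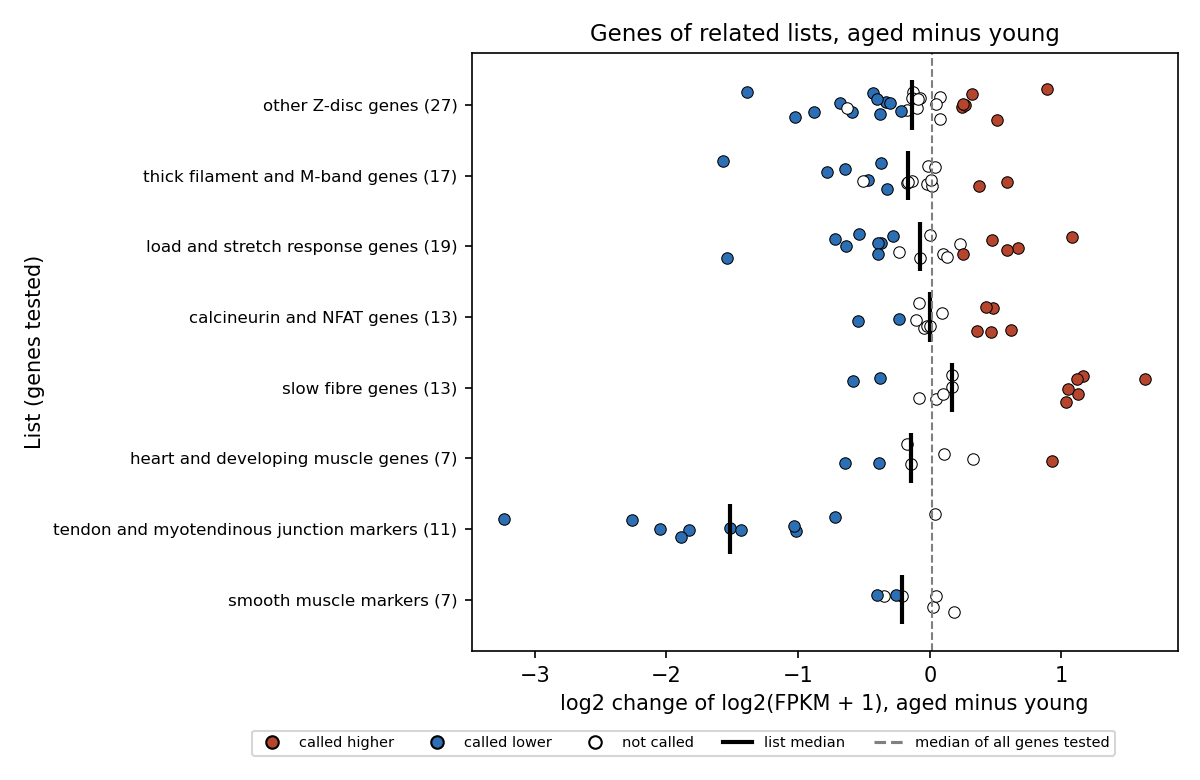
Log2 change of log2(FPKM + 1), aged minus young, of each tested gene in 8 lists, with a black bar at each list's median and a dashed line at 0.02, the median of all genes tested. Red points were called higher, blue points lower and open points were not called, and the tendon list has its median at −1.52 while the other list medians lie between −0.21 and 0.17.

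Tendon and myotendinous junction markers moved with age in the same direction as the 5 genes. Of 12 listed, 11 were tested (Tnc lay under the minimum), of which 10 fell, 0 rose and Scx did not pass by limma, 90.9% called against 51.8% of all genes, of which 24.5% fell. The median log2 change was −1.52. No marker rose at an unadjusted p under 0.05 or by voom (0 in each). Cilp2 fell by 3.23, Tnmd by 2.26 and Col12a1 by 2.05 on the log2 scale (adjusted p = 0.000261, 0.000199 and 3.87e-05, limma). The summed level of the list was 120, 101 and 105 FPKM in aged libraries, against 452, 372 and 243 FPKM in young libraries, and no marker was at 0. Within the young libraries this sum was highest in replicate 1 and lowest in replicate 3, the reverse of Actc1, Csrp3 and Ankrd2. Fmod and Thbs4 were the largest parts of the sum. Not every marker had this order, as Col22a1 was lowest in young replicate 1 (9.75 FPKM) and Tnc in young replicate 2 (0.992 FPKM). The part of tendon in the difference of the 5 genes with age was not tested.

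Smooth muscle markers, with 7 tested of 8 in the tables, fell in 2 cases, Synpo2 (−0.40) and Smtn (−0.26), and rose in 0 (adjusted p = 0.00348 and 0.0179, limma; 0 also at an unadjusted p under 0.05 and by voom). The Smtn call was lost on leaving out young replicate 2 (adjusted p = 0.0634) or young replicate 3 (0.0584), leaving 1 gene that fell in each case, and without aged replicate 1 there were 4. The 28.6% called stands against 51.8% of all genes. Des and Synpo2, also genes of the skeletal Z-disc, hold most of the summed level of this list, which was 2383 to 2458 FPKM in aged libraries, against 2361 to 2498 FPKM in young libraries. Of the markers more typical of smooth muscle, the myosin gene Myh11 had 10.9 ± 1.20 FPKM in aged muscle and 12.7 ± 1.22 FPKM in young muscle (adjusted p = 0.106, limma). Calponin, Cnn1, had 1.66 ± 0.585 FPKM in aged muscle and 2.36 ± 0.404 FPKM in young muscle (adjusted p = 0.109, limma).

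Fast fibre markers were high in all 6 libraries, with a sum over the 7 of 8 listed of 60855 to 62628 FPKM in aged libraries, against 60275 to 63213 FPKM in young libraries. Within this sum 3 markers fell and 2 rose, 71.4% called against 51.8% of all genes. Myh2, the type 2A myosin heavy chain, fell by 2.12 on the log2 scale, and Myh1, the type 2X chain, fell to 2243 ± 299 FPKM in aged muscle, against 3571 ± 184 FPKM in young muscle (adjusted p = 2.01e-05 and 0.00151, limma). Mylpf, the fast regulatory light chain, fell by 0.33 (adjusted p = 0.00809, limma), a call lost with no minimum level (0.0582). Myh4, the type 2B chain, rose to 8457 ± 169 FPKM in aged muscle, against 6070 ± 451 FPKM in young muscle (adjusted p = 0.00141, limma). Troponin T of fast fibres, Tnnt3, rose by 0.20 (adjusted p = 0.0292, limma), a call lost with the replicate number as a block (adjusted p = 0.0675) and without aged replicate 1 (0.0553), aged replicate 2 (0.0564), aged replicate 3 (0.0570), young replicate 1 (0.0792) or young replicate 3 (0.0738). The Tnnt3 call was also lost with no minimum level and with libraries rescaled by the median of gene ratios. The part of fast fibre types in the levels of the 5 genes was not tested.

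A few stress and strain genes were highest in young replicate 3, the library with the highest Actc1, Csrp3 and Ankrd2. Xirp1, an actin-binding repeat protein induced in strained muscle, had 57.6, 49.0 and 46.5 FPKM in aged libraries, against 51.1, 49.0 and 198 FPKM in young libraries (adjusted p = 0.293, limma). Flnc, filamin C of the Z-disc, had 265, 237 and 206 FPKM in aged libraries, against 289, 331 and 463 FPKM in young libraries. Lmcd1, a LIM-domain gene, had 81.6, 56.9 and 59.7 FPKM in aged libraries, against 63.5, 67.1 and 107 FPKM in young libraries. These genes, with Ankrd1 and Rcan1 of the same pattern, were chosen after their values were seen, and their part in the levels of the 5 genes was not tested. Without young replicate 3 the level of Actc1 was 20.9-fold lower in aged muscle, that of Csrp3 6.84-fold and that of Ankrd2 4.65-fold.

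**Figure D4:**
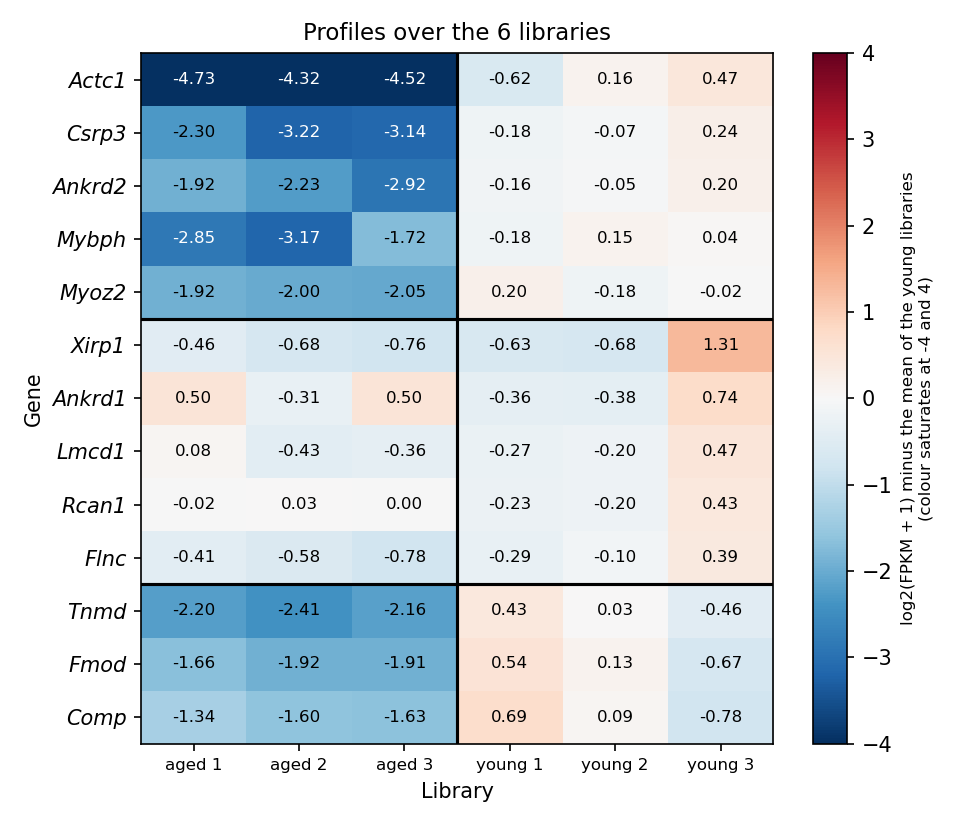
Heat map of log2(FPKM + 1) minus the gene's mean in young libraries, with the aged libraries left and the young ones right. The top block holds the 5 genes, from −4.73 (Actc1, aged replicate 1) to 0.47 (Actc1, young replicate 3). The middle block holds genes that were highest in young replicate 3. The lower block holds Tnmd, Fmod and Comp, a part of the tendon list, which were lowest there among the young libraries, while Col22a1 and Tnc of the same list were not.

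Library totals, recovered from the FPKM values, were 89919530 to 101057913 fragments in aged libraries and 71984420 to 102135094 in young libraries, with 80.2% to 81.3% in the listed genes. At this depth 0.0294 to 0.0417 FPKM equals 3 fragments on a transcript of 1 kb. The first principal component held 78.0% of the variance and separated the ages. Gapdh was at 67.3 FPKM in aged replicate 3, against 557 to 736 FPKM in the other 5 libraries, and of the 5 genes aged replicate 3 was lowest for Ankrd2 and Myoz2 and highest for Mybph.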

How the data were processed

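The authors deposited FPKM values, 1 table for each of the 6 libraries. The notes of the submitters list bcl2fastq 2.19, TopHat, DESeq2 and the build mm9, per the submitters' processing notes, but positions follow GRCm38, with 98.9% of gene starts within 5000 bases of GENCODE M21. The tables hold 11239 genes, and the rule behind their choice was not stated in the sources used here. A library total and a whole length per gene returned whole fragment counts within 0.001 for 100% of the 11175 genes with a value. No count of this kind entered the main test.

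Genes whose mean reached 1 FPKM were compared as log2(FPKM + 1), aged minus young, with limma 3.58.1 in R 4.3.3 (trend, two-sided, Benjamini-Hochberg, threshold 0.05), after a test on simulated data. Fold changes on this scale understate those of low genes. The 5 genes and the lists were chosen with earlier results of these data known. The text names every relative in the tables, the 3 genes nearest to each gene, the 5 nearest to their mean, and up to 3 called genes per direction in each other list. Same-numbered libraries correlated at 0.177, 0.182 and 0.136 after subtraction of group means, others at −0.192 to 0.0358. Subtracting the group means ties these correlations to one another, and the labels state no pairing. The main test was unpaired, and pairing by replicate number was run only as an alternative. Protein sequences were not used here, and identities are of coding bases. Alternatives were another pseudocount, minimum, scaling, a replicate block, voom on the fragments and leaving out each library.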

Additional observations from a re-analysis of the deposited data

How the results depend on the processing

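Under the alternatives run, each of the 5 genes was lower in aged muscle, with log2 differences of −4.84 to −4.29 for Actc1, −3.18 to −2.72 for Csrp3, −2.58 to −2.08 for Ankrd2, −3.05 to −2.29 for Mybph and −2.08 to −1.89 for Myoz2. Of 76 calls of list genes, 57 held in every setting, 19 were lost in at least 1 and 0 changed direction.

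Over all genes, 2097 rose and 1885 fell. The counts were 1573 and 1266 with a minimum of 5 FPKM, 2648 and 1580 on rescaling without the 20 highest genes, and 1540 to 2088 and 1431 to 1831 leaving out 1 library. With no minimum 2 heart and developing muscle genes rose, Chrng being added, and 1 relative fell. With a minimum of 5 FPKM, which tests fewer genes, 2 slow-fibre genes rose, 1 relative fell, and 0 calcineurin and 0 heart genes fell. On rescaling, 2 heart genes rose, and 1 calcineurin gene and 1 smooth muscle marker fell. The replicate block, which pairs samples by number, gave 2 heart genes that rose, against 1 without it. It also ended the calls of Actb and the fast marker Tnnt3 and added Trim63, and changed no other call of a list gene. Leaving out each library in turn, 2 to 5 relatives, 3 to 6 Z-disc genes, 3 to 5 load genes and 1 to 2 heart genes rose, while 1 to 2 calcineurin, 0 to 2 slow-fibre and 1 to 4 smooth muscle genes fell. The cause of these shifts was not tested. Among the 5 genes, counting error was widest for Mybph in aged muscle, at 267 to 1044 fragments.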
